A study of Homo sapiens with 6 samples.

Results

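The mRNA levels of 5 genes for secreted antimicrobial proteins, WFDC2, SLPI, PI3, CAMP and LCN2, were examined in 786-O cells with and without YB1 knockdown, and 4 of the 5 had lower FPKM in every shYB1 library than in any vector library. The same complete separation, with shYB1 lower, was found in 1305 (12.5%) of the 10439 genes that were tested. FPKM counts fragments relative to transcript length and to all mapped fragments of a library. The 5 genes, out of 20030 in the table, were taken by symbol. They had been chosen with the contrast of the same shYB1 and vector libraries in view, so their own difference is described here with no test. The cells were 786-O, an established line from clear cell renal cell carcinoma, at passages 16 to 18. The shYB1 cells carried a lentiviral shRNA against YB1 and the vector cells a scrambled shRNA, both stably expressed after puromycin selection, and no drug treatment is given for either group. Each group had 3 libraries. The deposited design text speaks of several shRNAs against YB1, whereas the labels give 1 shYB1 group and do not say which hairpin a library carried, nor whether the replicates were separate cultures, so p-values measure only the spread between these libraries.

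Epithelia and neutrophils release antimicrobial proteins that kill or starve microbes and limit tissue damage by proteases. WFDC2 (HE4), SLPI and PI3 (elafin) carry whey acidic protein (WAP) domains; SLPI and elafin block neutrophil elastase. CAMP encodes cathelicidin, the precursor of the membrane-active peptide LL-37, and LCN2 encodes lipocalin-2 (NGAL), which binds bacterial siderophores and so withholds iron. LCN2 and WFDC2 are also made by kidney tubule epithelium, and transcription of LCN2 is known to be driven by NF-kB and C/EBP factors.

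WFDC2, SLPI and PI3 lie together in the WAP gene cluster of chromosome 20, and CAMP and LCN2 lie elsewhere. In the GENCODE 29 annotation of GRCh38, WFDC2 spans chr20:45469706-45481532 on the plus strand, with 4 exons in its representative transcript. SLPI spans chr20:45252239-45254564 on the minus strand with 4 exons. PI3 spans chr20:45174876-45176544 on the plus strand with 3 exons, 79.7 kb from the start of SLPI and 294.8 kb from that of WFDC2. CAMP spans chr3:48223347-48225491 on the plus strand with 4 exons, and LCN2 spans chr9:128149071-128153455 on the plus strand with 7 exons. No exon of the 5 genes was overlapped by another annotated gene, and 0 of their 50-base words occurred in the transcript of another gene.

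Promoter windows from RefSeq (GRCh38.p14, 250 bases before to 50 after the start of transcription) were found for 3 of the 5 genes, WFDC2, LCN2 and CAMP. The stretches below are the parts of these windows that lie before or between annotated exons, all on the plus strand: chr20:45469503-45469705 for WFDC2, chr9:128149265-128149440 for LCN2 and chr3:48223245-48223346 for CAMP. They are shown because they differ in the motif letters they hold, which are in capitals.
WFDC2: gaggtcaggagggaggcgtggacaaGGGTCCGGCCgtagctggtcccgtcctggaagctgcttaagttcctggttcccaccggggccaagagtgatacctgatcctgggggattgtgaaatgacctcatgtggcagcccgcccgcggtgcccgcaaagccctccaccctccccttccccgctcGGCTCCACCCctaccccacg
LCN2: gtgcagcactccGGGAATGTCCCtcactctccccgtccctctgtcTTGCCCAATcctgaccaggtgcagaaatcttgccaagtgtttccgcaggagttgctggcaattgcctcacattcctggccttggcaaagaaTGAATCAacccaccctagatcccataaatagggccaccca
CAMP: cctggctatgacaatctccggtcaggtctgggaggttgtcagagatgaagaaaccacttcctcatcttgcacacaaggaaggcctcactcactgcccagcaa

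The letters searched, on both strands, were CCAAT for the Y-box core, to which YB1 is known to bind, and GGG followed after any 5 bases by CC for NF-kB. The AP-1 motif was searched as TGANTCA. The C/EBP motif was searched as TTGCNNAA. The LCN2 stretch held all 4. Its NF-kB letters, at position −176 from the start, were matched on both strands in overlapping frames, its Y-box core began at −139 inside overlapping C/EBP letters that began at −143, and its AP-1 letters began at −52. The WFDC2 stretch held NF-kB letters at −225 and −67 and none of the other motifs. The CAMP stretch held none of the motifs, and the rest of its window held NF-kB letters at position 35 after the start. Of 35116 RefSeq windows of the same length, 34.6% held the Y-box core, 58.7% the NF-kB letters, 7.71% the AP-1 letters and 10.5% the C/EBP letters. These matches describe letters, not binding.

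FPKM totals per library ranged from 282736 to 295887. The depth was not given. The median of small values above 0 put the worth of 1 fragment on a transcript of 1 kb roughly at 0.0380 to 0.0439 FPKM. YBX1, the gene of YB1, fell from 372 ± 5.70 FPKM in vector to 169 ± 4.04 in shYB1 (SD, n = 3 each; log2 fold change −1.14, standard error 0.031, limma adjusted p = 1.53e-08). In the fit over 10439 genes whose mean reached 1 FPKM, 723 genes (6.93%) were called lower in shYB1 and 1956 (18.7%) higher, at an adjusted p under 0.05. The higher genes were 73.0% of the calls with FPKM as deposited and 48.8% after median-of-ratios scaling, which moved the overall median log2 fold change from 0.055 to 0.00099. Of 17 renal and epithelial markers 12 reached a mean of 1 FPKM, with PAX8 at 77.1 FPKM in vector and 77.5 in shYB1. LRP2 was at 0 in every library. The means of CDH1 (0.019 FPKM), CUBN (0.081), NDUFA4L2 (0.27) and KRT7 (0.44) were under 1 FPKM. In bulk RNA, fewer cells that express a gene and less RNA per cell cannot be told apart.

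WFDC2 had the largest decrease of the 5 genes. Vector replicates 1 to 3 had 3.04, 3.64 and 4.27 FPKM, and shYB1 replicates 1 to 3 had 0.906, 1.48 and 0.930. The groups did not overlap, and the highest shYB1 library, replicate 2, lay 1.56 FPKM under the lowest vector library. The mean fell from 3.65 ± 0.615 to 1.11 ± 0.326 FPKM (SD, n = 3 each), 30.3% of the vector mean, with a log2 fold change of −1.66 (standard error 0.18) on the log2(FPKM + 0.1) scale. Ordered by log2 fold change from the lowest, WFDC2 ranked 2 of the 10439 genes tested, CAMP 7, SLPI 14 and LCN2 63. The genes were chosen with this contrast in view, so the ranks only describe them.

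SLPI, the secretory leukocyte protease inhibitor, had 2.87, 3.59 and 2.71 FPKM in vector cells against 1.58, 0.991 and 1.52 in shYB1 cells. All 3 shYB1 libraries were below all 3 vector libraries, and here shYB1 replicate 2 was the lowest. The means were 3.06 ± 0.466 and 1.36 ± 0.325 FPKM, so that shYB1 had 44.6% of the vector mean (log2 fold change −1.12, standard error 0.17). PI3, the third WAP protein, was listed at 0 in the 3 vector libraries and in shYB1 replicate 1, and at 0.120 and 0.126 FPKM in shYB1 replicates 2 and 3. These values correspond to at most about 1.82 and 1.68 fragments, PI3 did not pass the filter on low values, and no fold is given for it.

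CAMP was measured at 2.32, 2.71 and 3.10 FPKM in vector cells and at 1.01, 1.56 and 0.891 in shYB1 cells. The groups did not overlap, and shYB1 replicate 2 was the highest of its group, as for WFDC2. Its mean fell from 2.71 ± 0.389 to 1.15 ± 0.357 FPKM, 42.5% of the vector mean, with a log2 fold change of −1.19 (standard error 0.18).

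LCN2 was the most abundant of the 5 genes and had the smallest decrease of the 4 that passed the filter. Vector cells had 3.71, 4.28 and 4.56 FPKM, and shYB1 cells 3.25, 2.04 and 2.91. The groups did not overlap, but shYB1 replicate 1 lay only 0.456 FPKM under vector replicate 1. The means were 4.18 ± 0.434 and 2.73 ± 0.627 FPKM, 65.3% of vector, with a log2 fold change of −0.62 (standard error 0.16). Leaving out shYB1 replicate 2, the library with the lowest LCN2, gave a log2 fold change of −0.43.

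**Figure D1:**
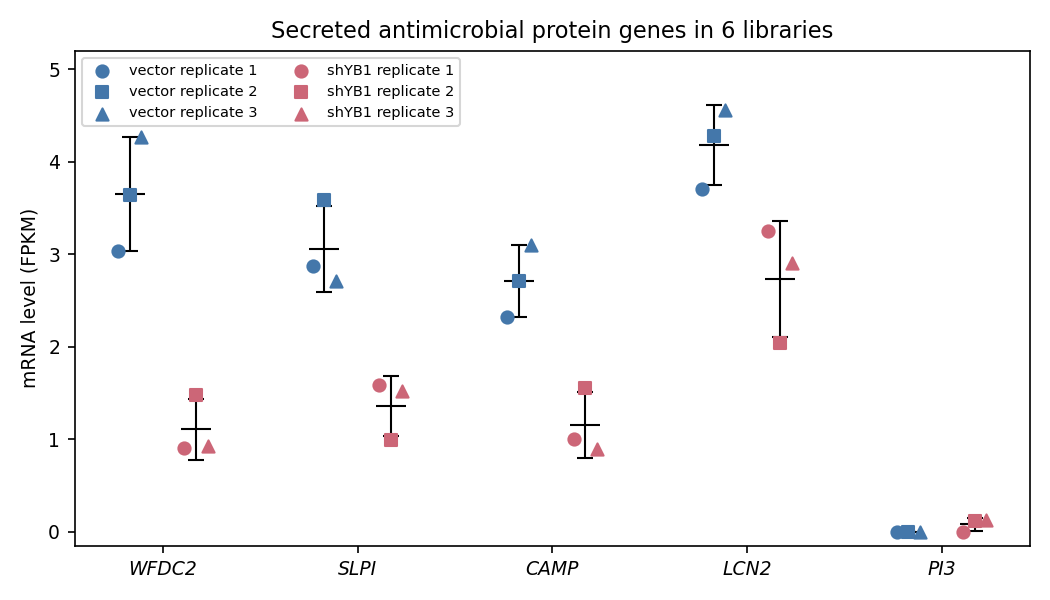
FPKM of WFDC2, SLPI, CAMP, LCN2 and PI3 in each of the 3 vector and 3 shYB1 libraries, with symbols for libraries and black bars for the mean and SD of each group. In every gene but PI3, which is at or near 0, all shYB1 symbols lie below all vector symbols, with the narrowest gap in LCN2 (0.456 FPKM) and the widest in WFDC2 (1.56 FPKM).

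Thus 4 of the 5 genes passed the filter, and in all 4 the shYB1 libraries lay below the vector libraries. The genes were chosen on these values. Among all genes tested, 12.5% (1305 of 10439) had this separation. The summed FPKM of the 4 genes was 11.9, 14.2 and 14.6 in vector cells against 6.75, 6.07 and 6.25 in shYB1 cells, or 13.6 ± 1.45 and 6.36 ± 0.352 (SD, n = 3 each). The shYB1 sum was 46.7% of the vector sum, and its spread between libraries was narrower than that of the vector sum.

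Within the groups the 4 genes did not share 1 ranking of libraries. In vector cells, replicate 3 was highest for WFDC2, CAMP and LCN2 and replicate 2 for SLPI. In shYB1 cells, replicate 2 was highest for WFDC2 and CAMP and lowest for SLPI and LCN2. The levels rest on few fragments. From the rough depth, WFDC2 had at most about 48.9 to 59.8 fragments per vector library and 13.2 to 23.9 per shYB1 library, and LCN2 80.0 to 88.5 and 44.1 to 66.5. The ranges were 36.9 to 53.8 and 15.6 to 23.5 for SLPI, and 45.3 to 52.6 and 15.3 to 30.6 for CAMP. Counting error alone would give a log2 SD of at least about 0.35 for WFDC2 in shYB1, where 0.37 was observed. All counting values here are meant as lower limits, since the fragment numbers are meant as upper ones. Neither is guaranteed, because the depth was itself estimated. For CAMP in shYB1 the counting value was 0.31 and the observed SD 0.39, and for SLPI they were 0.32 and 0.35. LCN2 in shYB1 had the widest margin over the counting value, with 0.19 from counting and 0.34 observed. In vector the observed SD was above the counting value for WFDC2 (0.239 and 0.195). It was slightly below for SLPI (0.206 and 0.215), CAMP (0.201 and 0.205) and LCN2 (0.149 and 0.157).

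The order of the levels, which FPKM allow to be compared between genes within a library, was LCN2, WFDC2, SLPI, CAMP and PI3 in vector cells. LCN2 was above WFDC2, and WFDC2 above SLPI, in each of the 3 vector libraries, although the ranges of these neighbours over the libraries overlapped. SLPI was above CAMP in 2 of the 3, so that their order was within the spread. In shYB1 cells LCN2 stood above the rest without overlap, and SLPI, CAMP and WFDC2 overlapped each other, with no order between them that held in all 3 libraries. The 4 genes were low among the 10439 tested. Their mean FPKM lay at percentile 26.1 for LCN2, 16.0 for WFDC2, 14.3 for SLPI and 10.9 for CAMP.

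**Figure D2:**
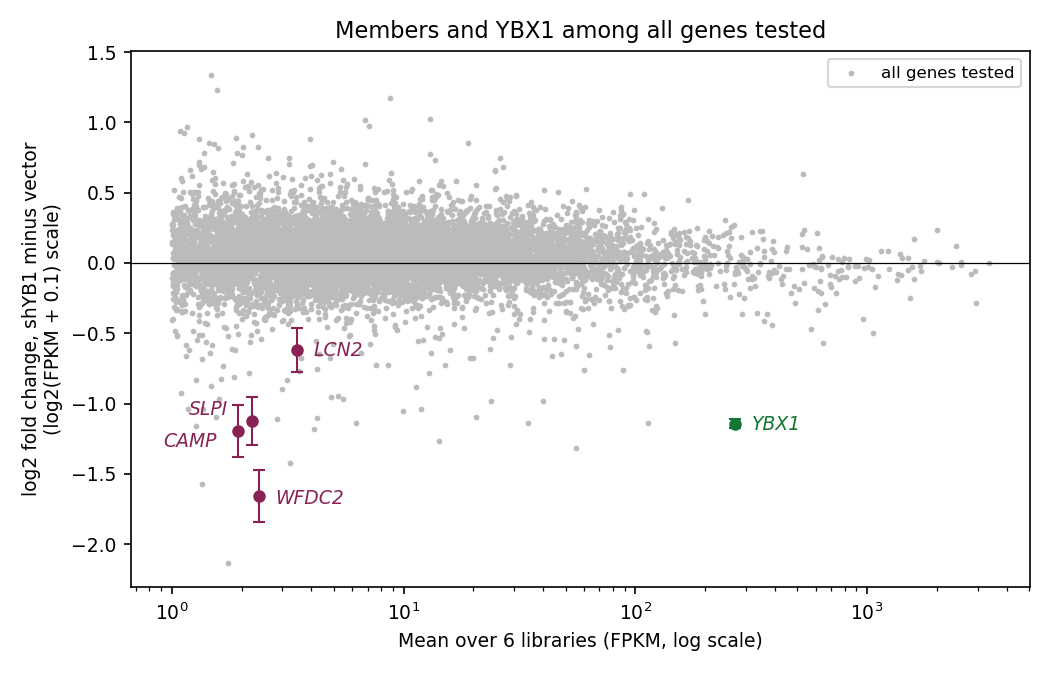
Log2 fold change (shYB1 minus vector, log2(FPKM + 0.1) scale) against mean FPKM over the 6 libraries (log axis) for the 10439 genes tested, in grey, with WFDC2, SLPI, CAMP, LCN2 and YBX1 coloured and bars for their standard errors. The 4 genes lie at the low end of expression, where WFDC2 (−1.66), CAMP (−1.19) and SLPI (−1.12) sit well below most grey points and LCN2 (−0.62) just below their main band.

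Other genes with a WAP domain gave little signal. Of 15 in the list 8 were at 0 in every library and 1, WFDC3, passed the filter. WFDC3 had 3.29 ± 0.319 FPKM in vector and 3.68 ± 0.394 in shYB1 (log2 fold change 0.15, adjusted p = 0.261), and its groups overlapped. Lipocalins other than LCN2 were also mostly silent. Of 18, 9 were at 0 in all libraries, and neither tested gene was called. AMBP, which encodes the plasma protease inhibitor bikunin with a lipocalin, had a log2 fold change of −0.19 (adjusted p = 0.233). PTGDS, prostaglandin D synthase, had one of −1.04, with overlapping groups that ranged from 0.297 to 2.57 FPKM (adjusted p = 0.250).

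Of 73 other antimicrobial protein genes in the table, among them defensins, S100 proteins, lysozymes and secreted ribonucleases, 53 were at 0 in all libraries and 6 were tested. Called lower were RNASE4, an antimicrobial ribonuclease (6.39 ± 0.658 to 4.85 ± 0.417 FPKM, log2 fold change −0.39, adjusted p = 0.00937), and ADM, the peptide hormone adrenomedullin (333 ± 10.1 to 308 ± 2.43 FPKM, −0.11, adjusted p = 0.027). RNASE4 shares 49.8% of its 50-base words with other transcripts, so its reads may be divided. The call of ADM was lost without any 1 shYB1 replicate or without vector replicate 1 (adjusted p up to 0.0901). CCL20, a chemokine with antimicrobial activity, rose from 1.40 ± 0.0124 to 2.01 ± 0.0568 FPKM (0.49, adjusted p = 0.00211). The median log2 fold change of the 6 was −0.11. Of all genes tested, 6.93% were called lower and 18.7% higher.

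Other protease inhibitors were the serpins, cystatins, Kunitz and Kazal proteins and alpha-2-macroglobulin relatives. Of these, 3 of 13 tested genes were called lower and 5 higher, with a median log2 fold change of 0.018. The shares over all genes tested were 6.93% and 18.7%. SERPINA1, alpha-1-antitrypsin, which like SLPI and elafin blocks neutrophil elastase, fell from 57.1 ± 1.15 to 47.1 ± 1.24 FPKM (−0.28, adjusted p = 0.000402). SERPINB9, a granzyme B inhibitor, fell by 0.32 on the log2 scale (adjusted p = 0.00236) and SERPINB1, an intracellular elastase inhibitor, fell by 0.22 (adjusted p = 0.00899). The higher genes included SERPINB8 (0.51, adjusted p = 0.00418) and CSTB, cystatin B (0.25, adjusted p = 0.000622). CD109 was called higher (0.16, adjusted p = 0.0382) although its groups overlapped, and lost the call without shYB1 replicate 1 or 2 or vector replicate 1 or 3 (adjusted p up to 0.127).

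Of the target proteases and binding partners of these proteins, 3 of 7 tested genes were called lower and 1 higher. Their median log2 fold change was −0.18, and the shares over all genes tested were 6.93% lower and 18.7% higher. ELANE, which encodes neutrophil elastase, had 1.70, 1.58 and 1.74 FPKM in vector and 1.36, 0.806 and 0.918 in shYB1 (−0.68, adjusted p = 0.0127), with no overlap. PRTN3, proteinase 3, which cuts cathelicidin to LL-37, was called lower (−0.43, adjusted p = 0.0336) with overlapping groups. That call was lost without shYB1 replicate 2 or 3 or vector replicate 2 or 3 (adjusted p up to 0.109) and with a replicate block. GRN, progranulin, which SLPI protects from elastase, fell from 205 ± 9.02 to 180 ± 2.67 FPKM (−0.18, adjusted p = 0.00504). ANXA2, a cell surface ligand of SLPI, rose by 0.14 (adjusted p = 0.00765), and 5.91% of its 50-base words occur in other transcripts.

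Genes of iron handling, the process that lipocalin-2 touches, had 6 of 13 tested genes called lower and 1 higher. Their median log2 fold change was −0.18. Among all genes tested, 6.93% were called lower and 18.7% higher. CP, the ferroxidase ceruloplasmin, fell from 24.5 ± 0.749 to 15.3 ± 0.371 FPKM (−0.67, adjusted p = 4.58e-06), and ACO1, iron regulatory protein 1, fell to 30.4 ± 0.145 FPKM (−0.40, adjusted p = 3.09e-05). FTH1, the ferritin heavy chain, fell by 0.28 (adjusted p = 0.000245), with 19.9% of its 50-base words shared with other transcripts. SLC11A2, the iron importer DMT1, fell by 0.20 (adjusted p = 0.0399), a call lost without any 1 shYB1 replicate or without vector replicate 1 or 3 (adjusted p up to 0.119). TFRC, the transferrin receptor, rose from 27.5 ± 1.03 to 33.3 ± 1.26 FPKM (0.27, adjusted p = 0.00166).

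Genes of pathways known to induce the antimicrobial genes had 12 of 33 tested genes called lower and 4 higher (median log2 fold change −0.078). The list covers the NF-kB and C/EBP families, epithelial factors and cytokine and Toll-like receptor pathways. It also holds the NF-kB inhibitor NFKBIA. IL1B, interleukin-1 beta, had 1.66, 1.56 and 1.58 FPKM in vector and 0.960, 0.471 and 0.831 in shYB1 (−1.04, adjusted p = 0.00592). TNF had 3.32, 5.55 and 4.68 FPKM in vector and 2.59, 2.69 and 2.93 in shYB1 (−0.67, adjusted p = 0.0149). Neither gene overlapped between the groups, but the call of TNF was lost without shYB1 replicate 1 or 2 or vector replicate 3 (adjusted p up to 0.0587). ELF3, an epithelial transcription factor, fell from 58.4 ± 2.89 to 37.1 ± 1.35 FPKM (−0.65, adjusted p = 7.39e-06) and TLR5, the flagellin receptor, from 1.80 ± 0.0923 to 1.12 ± 0.108 (−0.64, adjusted p = 0.0015). CEBPD, a C/EBP factor induced in inflammation, fell from 769.8 ± 32.5 to 519.4 ± 38.9 FPKM (−0.57, adjusted p = 9.86e-05) with no overlap. CEBPB was called lower (148 ± 7.72 to 126 ± 13.0 FPKM, −0.23, adjusted p = 0.0372) with overlapping groups, a call lost without shYB1 replicate 1 or 2 or vector replicate 1 or 3 (adjusted p up to 0.116). Of the NF-kB subunits, NFKB1 (0.08), RELA (0.08), RELB (−0.35) and REL (−0.02) were not called. The subunit NFKB2 was called lower (−0.23, adjusted p = 0.0274). Also called lower were NFKBIA, an NF-kB inhibitor (−0.51, adjusted p = 6.27e-06), and NFKBIZ (−0.25, adjusted p = 0.00189), neither of which is a subunit. These C/EBP and NF-kB genes are outside the rule for named genes and were added after their values were seen. The calls of NFKB2, NFKBIA and NFKBIZ were not rechecked with a library left out. Over all genes tested, 6.93% were called lower and 18.7% higher. Called higher were CEBPA, a C/EBP factor at a far lower level (1.17 ± 0.109 to 1.81 ± 0.255 FPKM, 0.59, adjusted p = 0.00606), CEBPG (0.42, adjusted p = 0.000755), the kinase IRAK1 (0.40, adjusted p = 0.000188) and KLF5 (0.25, adjusted p = 0.0471). The call of KLF5 was lost without any 1 library except shYB1 replicate 3 (adjusted p up to 0.17).

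Counted once each, 75 genes of these lists were tested, and 26 (34.7%) were called lower and 12 (16%) higher, beside 6.93% and 18.7% over all genes. Their median log2 fold change was −0.11 against 0.055 over all genes. The lists were assembled with earlier results of these data known, so these shares describe the lists and were not tested.

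**Figure D3:**
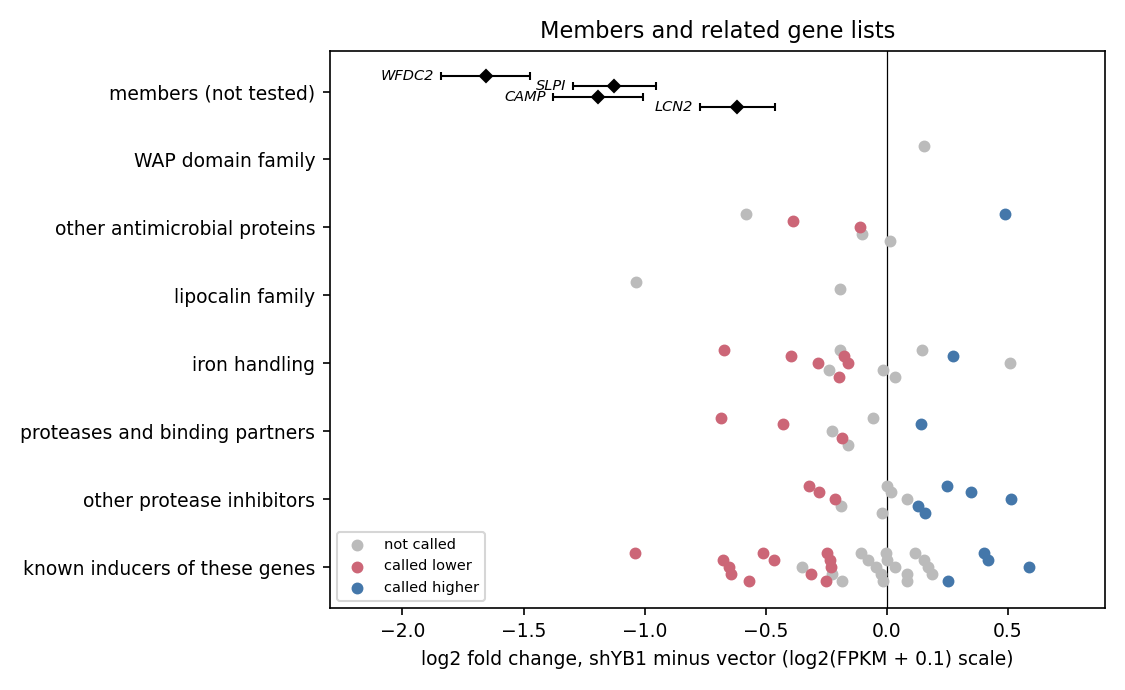
Log2 fold change (shYB1 minus vector, log2(FPKM + 0.1) scale) of each tested gene in the 7 related lists, coloured by call, with WFDC2, SLPI, CAMP and LCN2 as diamonds with standard errors in the top line. Most list genes lie within a narrow band near 0, and IL1B and PTGDS (both −1.04) come nearest to SLPI (−1.12), PTGDS without being called.

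Neutrophils store LCN2, CAMP and SLPI in granules, so their markers were set beside the result. Of 17 neutrophil and myeloid markers, 6 were at 0 in all libraries (MPO, CEACAM8, FCGR3B, CXCR1, CXCR2 and TYROBP) and 2 passed the filter, of which ELANE was called lower. Their summed level ranged from 2.82 to 5.19 FPKM in vector and from 2.0 to 3.04 in shYB1, so the groups overlapped, and their part in the result was not tested. LYZ, lysozyme, the other marker tested, ranged from 0.0704 to 2.87 FPKM within vector cells alone. Of 17 renal and epithelial markers, 12 were tested, with 2 called lower, the membrane mucin MUC1 (−0.64, adjusted p = 0.000179) and the kidney cadherin CDH16 (−0.34, adjusted p = 0.00128). PAX2 (0.15, adjusted p = 0.0392) and KRT19 (0.12, adjusted p = 0.0259) were called higher. Over all genes tested the shares were 6.93% lower and 18.7% higher. Each of PAX2 and KRT19 lost its call in 5 of the 6 fits that left out a library, with adjusted p up to 0.129 for PAX2 and 0.0972 for KRT19; PAX2 kept it without shYB1 replicate 2 and KRT19 without vector replicate 3.

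The genes whose profiles over the 6 libraries lay nearest to each of the 4 were found by the root mean square difference in log2(FPKM + 0.1) after subtracting the vector mean. For WFDC2 they were IFITM1, an interferon-induced membrane protein (0.258), FGG, the fibrinogen gamma chain (0.269), and the metalloprotease MMP7 (0.318). For SLPI they were IL1B (0.166), FGB, the fibrinogen beta chain (0.191), and the complement protease C1S (0.213). CAMP was nearest to the chemokine CCL2 (0.194), MMP7 (0.223) and complement C3 (0.242). LCN2, with its smaller decrease, was nearest to LOC101927322 (0.0948), the peptide UCN (0.125) and BCL3, an NF-kB cofactor (0.149). Among the 4 genes, the closest pair was WFDC2 and CAMP (0.333) and the most distant WFDC2 and LCN2 (0.841). The measure describes likeness in these libraries and carries no test.

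Genes next to the 5 were examined for a change of the whole region. Within 200 kb of the start of WFDC2 lay 14 other genes, of which 7 were at 0 in every library and 3 were tested. DBNDD2, untested at a mean of 0.877 FPKM and outside the rule for named genes, was higher in shYB1. It had 0.630 ± 0.269 FPKM in vector and 1.12 ± 0.218 in shYB1. SDC4, a heparan sulfate proteoglycan (−0.17, adjusted p = 0.0129), and PIGT, a subunit of the GPI transamidase (−0.11, adjusted p = 0.0445), were called lower, and SYS1 had −0.09 with no call. The same 3 genes were those tested near SLPI. The call of SDC4 was lost without shYB1 replicate 1 (adjusted p = 0.0530), and that of PIGT without any 1 shYB1 replicate or without vector replicate 1 or 3 (up to 0.133). Near CAMP 4 of 6 genes were tested, with ZNF589 lower (−0.52, adjusted p = 0.00207) and NME6 higher (0.49, adjusted p = 0.0106). Near LCN2 all 12 neighbours were tested, with GOLGA2 (−0.23, adjusted p = 0.00665) and CIZ1 (−0.16, adjusted p = 0.013) lower and SLC27A4 (0.30, adjusted p = 0.0047) and NAIF1 (0.29, adjusted p = 0.0176) higher. CIZ1 lost its call without shYB1 replicate 2 (adjusted p = 0.0534), and NAIF1 without shYB1 replicate 1 or 3 (up to 0.0562). No tested neighbour reached the log2 fold change of −0.62 of LCN2. Over all genes tested, 6.93% were called lower and 18.7% higher.

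**Figure D4:**
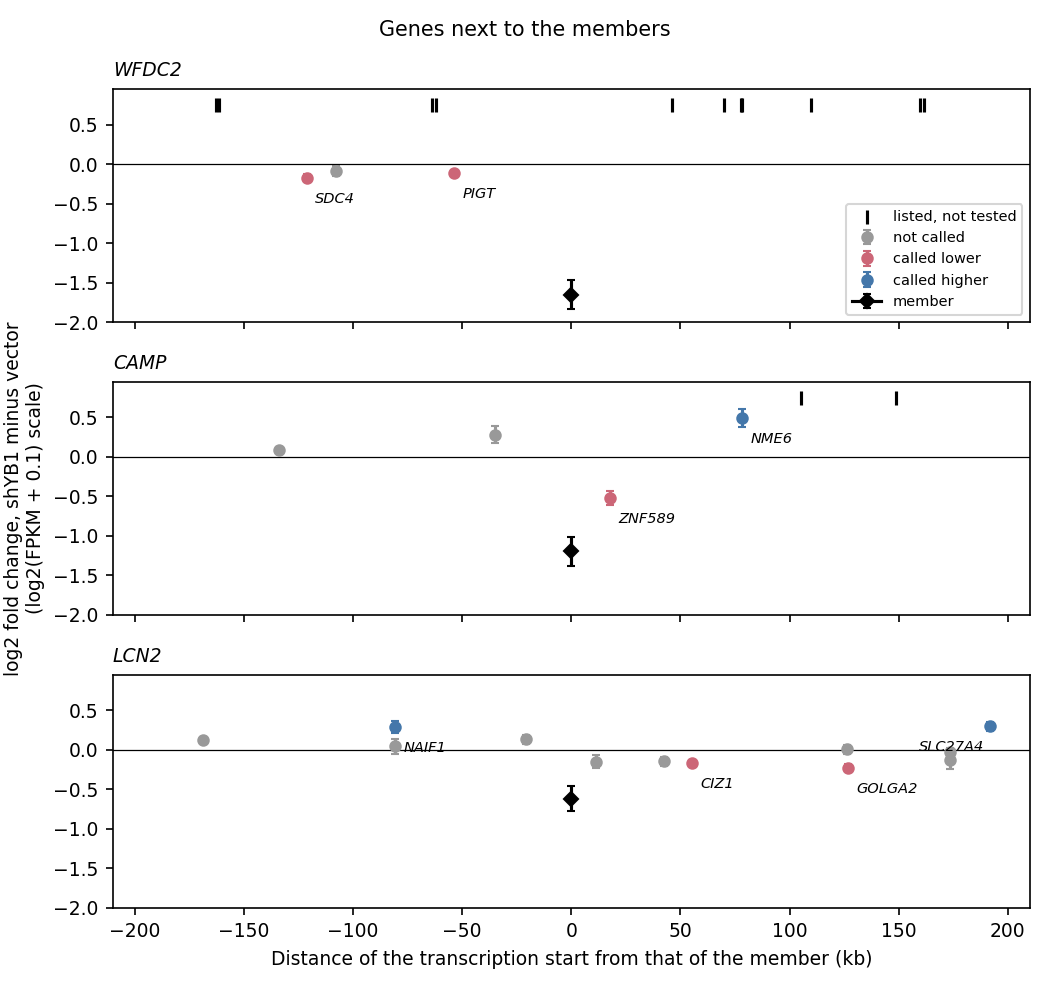
Log2 fold change (shYB1 minus vector, log2(FPKM + 0.1) scale) of tested genes, coloured by call and with standard errors, against their distance in kb from the start of WFDC2, CAMP or LCN2 (diamonds, 1 panel each), with untested neighbours as ticks along the top. CAMP (−1.19) lies below ZNF589 (−0.52), the lowest of its 4, WFDC2 (−1.66) stands far below its 3 tested neighbours, of which the lowest is SDC4 (−0.17), and LCN2 (−0.62) lies below all 12 of its own, the lowest being GOLGA2 (−0.23).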

How the data were processed

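High-throughput mRNA sequencing of 786-O shYB1 and vector cells (3 libraries each, grouped by the labels) was analysed. The methods call the assay a microarray analysis, whereas the labels and the deposited values are those of RNA sequencing. The authors deposited FPKM for 20030 genes, with GO terms, and each of the 6 library columns entered (0 were unused). The submitters' processing notes name Trimmomatic, HISAT2, Cufflinks, HTSeq and DESeq and the build GRCh38, without versions or roles. FPKM carry no counts, so precision was judged from an estimated depth. It was taken from the median of small values of long genes listed above 0 in at most 2 libraries. The estimate is an upper one and covers counting error only.

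The 10439 genes whose mean reached 1 FPKM were transformed to log2(FPKM + 0.1), and shYB1 was set against vector in limma 3.58.1 under R 4.3.3 (trend and robust prior, two-sided, Benjamini-Hochberg over all genes tested, called at an adjusted p under 0.05). A fold change on this scale understates the change of low genes. Python 3.11.15, NumPy 2.4.6, pandas 2.3.3 and matplotlib 3.10.9 served for the rest. Genes were matched to GENCODE 29 by accession (13518) or symbol (5825), and 687 were not matched. The members and lists were chosen with earlier results of these data known. Named genes are the 5 members, YBX1, the called genes of each list (at most 4 per direction by absolute fold change), 2 tested genes of highest level where a list had no call, tested neighbours within 200 kb, and the 3 nearest profiles of each member. The result of 1 gene covered by this rule is not reported here. Alternatives were other pseudocounts (1 and 0.01), no filter or one at a mean of 5 FPKM, other scalings (median-of-ratios, quantile, common total), a prior without trend, a replicate block and each library left out.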

Additional observations from a re-analysis of the deposited data

How the results depend on the processing

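The low level of the 4 genes, all under 5 FPKM, was the main limit, since a fold change there depends on the pseudocount. With a pseudocount of 1 the log2 fold changes were −1.14 for WFDC2, −0.78 for SLPI and −0.79 for CAMP, as the larger constant implies. With a library left out they ranged from −1.87 to −1.54 for WFDC2, from −1.24 to −0.93 for SLPI, from −1.41 to −1.04 for CAMP and from −0.75 to −0.43 for LCN2. A filter at a mean of 5 FPKM gave no value for any of the 4. PI3 entered only the fit without a filter, and no fold is given for it. Over all genes, median-of-ratios scaling gave 1253 genes lower and 1192 higher, and quantile normalization 1184 and 1267, against 723 and 1956 as deposited. With a library left out there were 513 to 606 lower and 1323 to 1944 higher genes. The replicate block gave 760 lower and 2074 higher genes and 25 and 12 list genes; in this balanced design it cannot move a fold change. Deviations of same-numbered libraries correlated at −0.169 to −0.00824 (3 pairs) and those of other pairs at −0.0507 to 0.113 (6 pairs). No shared effect of the replicate number was visible. With so few libraries this cannot show whether they were prepared in pairs, which the labels do not say. Of 645 values for 44 other genes, 570 kept their direction and side of the threshold, 75 lost the call and 0 turned direction. These genes include WFDC3, AMBP and PTGDS, which had no call to lose.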

Other observations

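In the deposited GO terms, all 5 genes carry the term extracellular exosome. Of 1264 other tested genes with that term, 115 (9.10%) were called lower and 286 (22.6%) higher in shYB1. Over all 10439 genes tested the shares were 6.93% and 18.7%. WFDC2, SLPI and PI3 share serine-type endopeptidase inhibitor activity, for which 7 of 20 other tested genes were called lower and 4 higher, with a median log2 fold change of −0.07. The same 3 genes carry the term endopeptidase inhibitor activity, for which limma called 0 of 9 other tested genes lower (0 also at an unadjusted p under 0.05) and 3 higher, with a median of 0.12. SLPI, CAMP and LCN2 share innate immune response, with 14 of 128 other tested genes called lower (10.9%) and 17 higher (13.3%). The same 3 genes share specific granule lumen, a neutrophil compartment, with 0 of 19 called lower by limma (1 at an unadjusted p under 0.05) and 3 higher, and neutrophil degranulation, with 23 of 207 lower and 42 higher. For extracellular region (369 tested genes) 45 were lower and 81 higher, for extracellular space (273) 43 and 58, and of 2 tested genes of the antimicrobial humoral response 1 was lower. These counts are descriptions of terms picked because at least 3 of the 5 genes carry them, and no enrichment was tested.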
